A study of Glycine max with 6 samples.

Results

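The soybean bZIP transcription factors were taken as every soybean probe set whose platform gene symbol began with BZIP and a number. A probe set is a group of short probes on the array that together report 1 transcript or a few like ones. The rule found 93 of 37593 soybean probe sets. Of these, 89 carried 1 symbol and stood for 58 genes, and 4 carried several symbols, from which no single gene is named. Of the 58 genes, 35 had 1 probe set and 23 had several, up to 4. The rule used only names, but the interest in BZIP77, BZIP117, BZIP124 and BZIP59 came from earlier results of these arrays, so their values are a description and no independent test of their direction.

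The arrays measured total RNA of soybean (Glycine max) cotyledons, the storage organs of the seed, collected at 150 mg. RNAi line 1 and RNAi line 2 are transgenics of independent origin, and both carry an RNA interference construct against seed storage proteins. In RNA interference, double-stranded RNA leads to the breakdown of matching transcripts. The control was a nontransgenic wild type, given as Jack in the labels. Each of the 3 samples was measured on 2 technical replicate arrays, 6 arrays in all. The labels do not give the construct, its promoter, the genes it targets or the number of seeds per sample. With a single control sample, transgene, growth and handling cannot be told apart, and in bulk tissue fewer cells of a type and less RNA per cell cannot be told apart either.

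A bZIP protein holds a basic region that contacts DNA and a leucine zipper through which it pairs with itself or with another bZIP protein. Many plant members bind elements with an ACGT core, among them the G-box and the abscisic acid response element. In seeds of Arabidopsis and other plants, bZIP factors act with regulators such as ABI3 and LEC1 on genes of storage proteins and late embryogenesis proteins. Several soybean members are known for other roles. BZIP1 is also named AREB1, for binding the abscisic acid response element, STF2 is a relative of the Arabidopsis light factor HY5, and BZIP44 and BZIP62 are known as negative regulators of abscisic acid signalling from work in transgenic Arabidopsis.

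Signals were the deposited intensities on a linear scale, already set to a common trimmed mean of 500.1 per array. Over all probe sets the median signal was 57.8 to 72.4 per array, and 26459 to 27396 soybean probe sets lay above background. Background was the 95th percentile of the probe sets for other organisms, 68.4 to 91.7 by array. The poly-A spike controls stood apart by group, with a geometric mean signal of 2019 to 2139 on the RNAi arrays against 5871 and 6191 on the control arrays. Scaling to these spikes moved the median change of all tested probe sets to 1.48 on the log2 scale, against 0.02 on the deposited scale. Every change below is relative to the deposited scale.

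Most of the bZIP family was detectable in the cotyledon. A probe set counted as detected when it lay above background on both arrays of at least 1 sample, and 69 of the 93 bZIP probe sets did (74.2%), against 73% of all soybean probe sets. The 69 stood for 45 of the 58 genes, besides the shared probe sets. In all, 58 probe sets were above background on every array and 15 on none. The 13 genes with no detected probe set were BZIP1, BZIP9, BZIP35, BZIP42, BZIP44, BZIP48, BZIP50, BZIP58, BZIP71, BZIP81, BZIP82, BZIP83 and BZIP112. A probe set that was not detected may also bind its transcript poorly, so these signals bound what the array could see and do not show that the gene was silent.

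The family held both bright and dim members in the control. The median control signal was 203 over the 93 probe sets, against 276 over all soybean probe sets, and 491 over the 69 detected, against 544 over all detected. Of the bZIP probe sets 8 were above 4000 (8.6%), against 7.17% of all soybean probe sets. A further 7 lay between 1000 and 4000, and 47 of the detected ones between 100 and 1000. Probe sets differ in how well they bind, so the order of signals is one of brightness and not of transcript number.

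**Figure D1:**
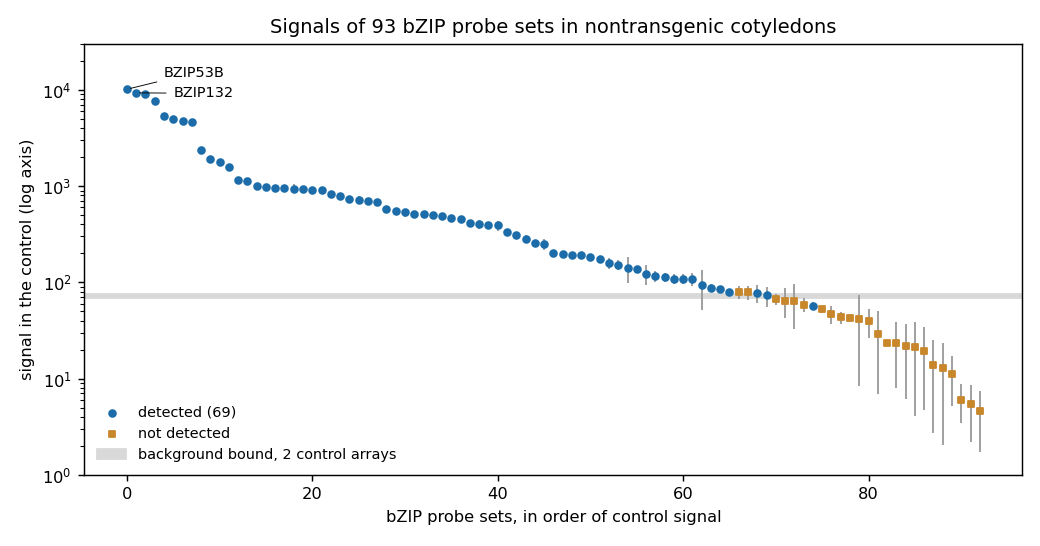
Signals of all 93 bZIP probe sets in nontransgenic cotyledons, ordered by control signal, on a log axis. Points are means of the 2 control arrays, grey bars span those 2 arrays, circles mark the 69 detected probe sets and squares the others, and the grey band is the background bound of the control arrays; 8 probe sets lie above 4000.

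Among probe sets of 1 gene the brightest in the control was that of BZIP53B, whose symbol matches Arabidopsis bZIP53, an activator of seed maturation genes there. It had 5229 and 5376 in line 1 and 5434 and 5763 in line 2, against 10282 and 10012 in the control. All 4 RNAi arrays were thus close to each other and well below both control arrays. The next was BZIP132, a soybean factor reported to affect salt tolerance in transgenic plants. It had 14761 and 14733 in line 1 and 14437 and 15507 in line 2, against 9432 and 9194 in the control. Here all 4 RNAi arrays lay above the control, the opposite of BZIP53B.

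The 8 probe sets above 4000 also include the brightest of BZIP59 and the one shared by BZIP124 and BZIP126, whose values are given further on with larger changes. The remaining 4 differed less between the lines and the control. BZIP38 had 9675 and 9446 in line 1 and 8897 and 7996 in line 2, against 7949 and 7523 in the control. BZIP70 had 5064 and 5671 in line 1 and 5272 and 5074 in line 2, against 4758 and 5315 in the control, and the groups overlapped. BZIP37 had 5804 and 5126 in line 1 and 5404 and 4975 in line 2, against 4545 and 5043 in the control. It too overlapped, on 1 array of line 2. BZIP68 had 6190 and 6022 in line 1 and 5910 and 6398 in line 2, against 4444 and 4861 in the control, with no overlap. BZIP37 and BZIP38 carry probe sets from the same sequence cluster of the array, so part of their signal may be shared, which was not tested.

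The RNAi lines were set against the control by a limma fit on log2(signal + 16), with the 2 arrays of each sample averaged first, and p-values were adjusted over 27460 tested probe sets by the Benjamini-Hochberg method. The bZIP family lay on both sides of 0. The median change over its 69 tested probe sets was -0.02, against 0.02 over all tested, with 34 higher and 35 lower. The spread was wider than that of all tested probe sets: 9 of the 69 (13.0%) had a change of 1 or more on the log2 scale, against 4.55% of all, and 41 (59.4%) had one of less than 0.5, against 77.8% of all. The range ran from -1.47 to 1.12. The difference between the 2 arrays of a sample had a median size of 0.16 for the family, and 0.146 for all tested. These shares describe the family and were not tested against other probe sets. Of the 69, 4 were detected only through the lines and 5 only through the control. Such probe sets had to be high on that side to be tested at all, so their differences support nothing about the family. The 9 with a change of 1 or more include such probe sets, of BZIP61, BZIP72 and BZIP90.

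At an adjusted p under 0.05 the limma fit called 2 bZIP probe sets lower, both of the pair BZIP124 and BZIP126, where 0.594% of all tested were called lower. It called 0 bZIP probe sets higher, where 1.05% of all tested were. At an unadjusted p under 0.05, which is no call, 13 were higher (18.5% of all tested were) and 20 were lower (14.7% of all tested were). On the arrays themselves, 15 of the 69 had every RNAi array above both control arrays, where 25.9% of all tested did, and 27 had every RNAi array below both, where 23.6% of all tested did. These counts, and those at the unadjusted p, include probe sets detected only through the lines or only through the control. Detection there favoured a direction, so those entries support nothing about the family. The fit has 1 residual degree of freedom from the difference between the lines, and the control is assumed to vary as they do. The smallest adjusted p over all tested probe sets was 0.0488, just under the threshold, so these calls move with small changes of setting.

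**Figure D2:**
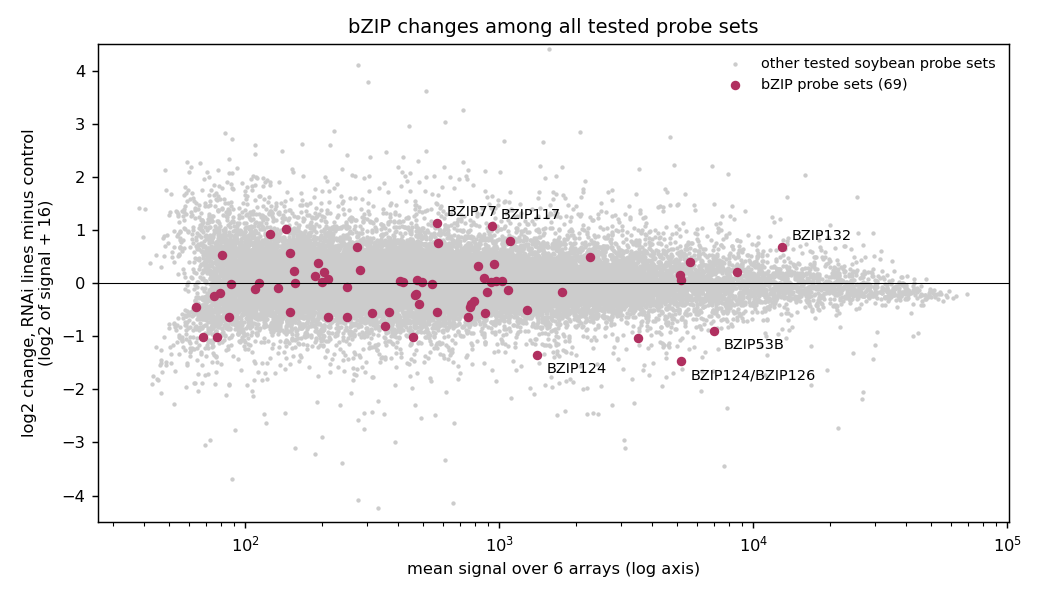
Change in the RNAi lines minus the control, on the log2 scale of signal + 16, against mean signal over 6 arrays on a log axis. Each point is a tested soybean probe set, with the 69 bZIP probe sets in dark red; they spread from -1.47, for the probe set shared by BZIP124 and BZIP126, to 1.12, for a probe set of BZIP77.

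BZIP124 (Entrez gene 100101862) showed the largest fall among bZIP genes with a probe set of their own. Its own probe set had 873 and 904 in line 1 and 997 and 934 in line 2, against 2395 and 2369 in the control. The 4 RNAi arrays lay together and far from the control arrays. The change was -1.35 ± 0.11 (SE, limma adjusted p = 0.0497), a mean of 927 ± 54.4 (SD, n = 2 lines) against 2382 in the control. A probe set of the same sequence cluster that bears both the BZIP124 and the BZIP126 symbol had 3404 and 2940 in line 1 and 3736 and 3040 in line 2, against 8877 and 9258 in the control. It gave -1.47 ± 0.11 (SE, limma adjusted p = 0.0488), and it cannot tell the genes apart.

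BZIP126 had a further probe set of its own, with 378 and 289 in line 1 and 376 and 309 in line 2, against 671 and 710 in the control. All 4 RNAi arrays were below the control, with a change of -1.01 ± 0.10 (SE) that missed the threshold (limma adjusted p = 0.0514). The BZIP124 call was lost, with its size between -1.37 and -1.33, under quantile normalization (adjusted p = 0.0713), median centring (0.0514), no filter on dim probe sets (0.193), a pseudocount of 1 (0.0637), a robust variance prior (0.0514), and when any RNAi array was left out (0.0752 to 0.116). Under scaling to the spikes BZIP124 gave 0.17, below the 1.48 of the median probe set.

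BZIP59 (Entrez gene 778130) was lower in both lines at its brightest probe set but missed the threshold. It had 2609 and 2608 in line 1 and 2574 and 2618 in line 2, against 5341 and 5357 in the control. The 4 RNAi arrays lay very close together, and so did both control arrays. The change was -1.03 ± 0.10 (SE, limma adjusted p = 0.0514), a fold of 0.487. A second probe set had 534 and 615 in line 1 and 713 and 660 in line 2, against 976 and 1001 in the control. Its change was smaller, -0.64 ± 0.16 (SE, adjusted p = 0.0995). The third had 70.1 and 72.5 in line 1 and 72.4 and 65.7 in line 2, all below background, against 87.8 and 83.6 in the control. The control was at least 1.08-fold higher there, and this probe set was detected only through the control, where it was high.

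BZIP53B, described above, gave -0.90 ± 0.10 (SE, limma adjusted p = 0.0547), a fold of 0.537. Next came BZIP130, with 262 and 229 in line 1 and 347 and 296 in line 2, against 492 and 510 in the control. Its arrays did not overlap, and its change was -0.80 ± 0.20 (SE, adjusted p = 0.103). Both BZIP61 and BZIP72 were below background on all 4 RNAi arrays and above it on both control arrays. BZIP61 had 70.7 and 40.1 in line 1 and 38.8 and 39.3 in line 2, against 97.0 and 122 in the control, which was at least 1.38-fold higher. BZIP72 had 72.5 and 55.6 in line 1 and 17.6 and 75.4 in line 2, against 150.5 and 93.2 in the control, which was at least 1.50-fold higher. Both were detected only through the control, the side where they were high, so no test is given. Their control signals were close to background, and the probe set of BZIP61 comes from the same sequence cluster as 2 probe sets of BZIP62.

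BZIP77 (Entrez gene 778133) had the highest positive change in the family, which did not pass the threshold. Its dimmer probe set had 684 and 691 in line 1 and 750 and 667 in line 2, against 309 and 314 in the control. The groups were far apart, and both lines lay at a like level. The change was 1.12 ± 0.10 (SE, limma adjusted p = 0.0505), a fold of 2.24. Its brighter probe set had 1127 and 1386 in line 1 and 1421 and 1226 in line 2, against 757 and 718 in the control. The change there was 0.79 ± 0.10 (SE, adjusted p = 0.0599).

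BZIP117 (Entrez gene 778191), with 1 probe set, had 1252 and 1125 in line 1 and 981 and 1183 in line 2, against 482 and 585 in the control. The groups were well apart, with a change of 1.07 ± 0.12 (SE, limma adjusted p = 0.0533) and a fold of 2.13. BZIP10 had 644 and 664 in line 1 and 629 and 717 in line 2, against 343 and 436 in the control. Its change was 0.75 ± 0.10 (SE, adjusted p = 0.0598). BZIP132, the bright member described above, gave 0.67 ± 0.10 (SE, adjusted p = 0.0633), a fold of 1.60.

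Some dimmer members also had all 4 RNAi arrays above the control. BZIP90 had 137 and 240 in line 1 and 122 and 212 in line 2, against 94.1 and 61.6 in the control. The 2 arrays of each line differed widely here. This probe set was above background on 1 control array only and was detected through the lines, where it was high, so no test is given. A second probe set of BZIP90 was below background in the control and at least 1.24-fold higher in the lines. It was detected only through line 1, where it was high, so it is no further support for a rise. The remaining pair of BZIP90 probe sets were not detected. BZIP94 had 336 and 278 in line 1 and 321 and 337 in line 2, against 203 and 180 in the control, with a change of 0.68 ± 0.11 (SE, limma adjusted p = 0.0673).

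**Figure D3:**
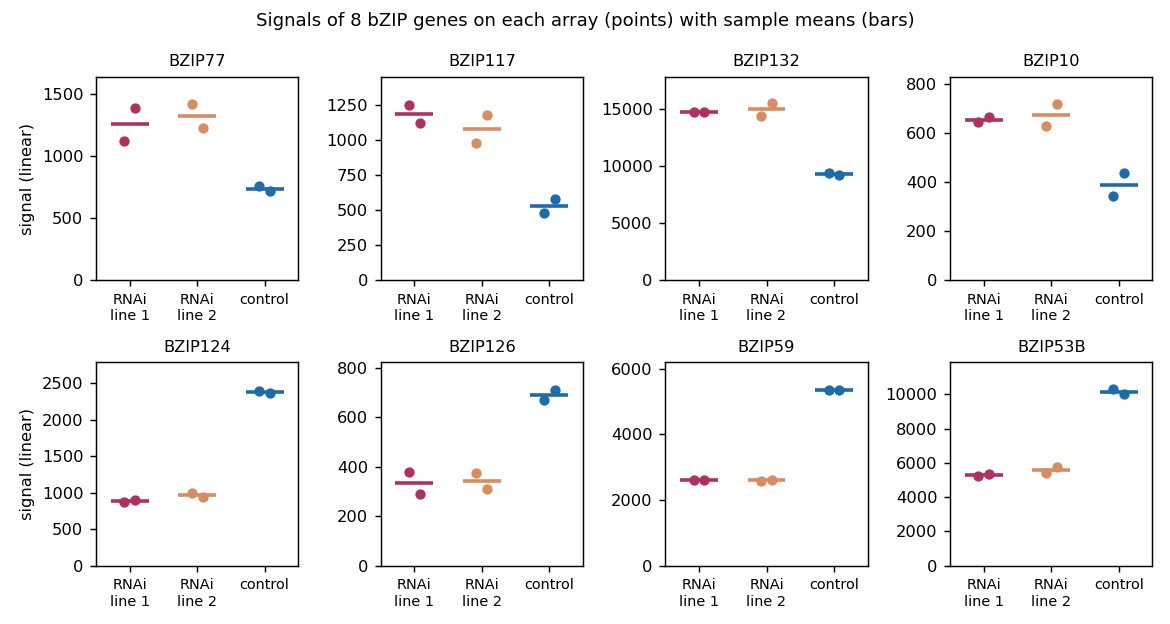
Signals on each array, on linear axes from 0, for 8 bZIP genes each at its probe set of highest mean, with line 1, line 2 and the control from left to right. Points are arrays and bars are means of the 2 arrays of a sample. In all 8 panels every RNAi array lies on the same side of both control arrays, above in the upper row and below in the lower row. The genes were picked with their values known, most of them for lying apart from the control, so this separation is no test. The bright genes BZIP70 and BZIP37, whose groups overlapped, are not shown.

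When each line was set against the control on its own, over 6 arrays in 3 groups, the p-values measured technical spread only. Line 1 had 17 bZIP probe sets called by limma at an adjusted p under 0.05, 7 higher and 10 lower, where 14.3% of all tested were called. Line 2 had 19, of which 7 were higher and 12 lower, where 15.4% of all tested were called. Both comparisons use the same control arrays, so they are given side by side. BZIP124 changed by -1.41 in line 1 (adjusted p = 0.00352) and by -1.29 in line 2 (0.00433). BZIP59 at its brightest probe set changed by -1.03 in line 1 (adjusted p = 0.00595) and by -1.04 in line 2 (0.00577). BZIP77 at its dimmer probe set changed by 1.10 in line 1 (adjusted p = 0.00685) and by 1.14 in line 2 (0.00609). BZIP117 changed by 1.14 in line 1 (adjusted p = 0.0146) and by 1.00 in line 2 (0.0186).

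Between line 1 and line 2 the limma fit called 0 bZIP probe sets, where 0% of all tested were called. At an unadjusted p under 0.05 there were 3, where 5.82% of all tested were. The median size of the difference was 0.117 for the family and 0.107 for all tested. These 3 were chosen by their p. The dimmer probe set of BZIP38 had 230 and 190 in line 1, against 371 and 303 in line 2, a difference of -0.64 (adjusted p = 0.774). BZIP130 differed by -0.37 (adjusted p = 0.825), and the dimmer probe set of BZIP94 by 0.52, with 178 and 231 in line 1 against 156 and 119 in line 2 (adjusted p = 0.847). The largest difference in size, 0.85, was at BZIP69 (limma adjusted p = 0.966). There 1 array of line 2 read 13.6 and the other 100.3, so its arrays of a sample disagreed more than the lines did. BZIP69 was detected only through the control, as 1 array of each line was below background.

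Probe sets of the same gene did not always give changes of the same sign. Of 17 genes with more than 1 detected probe set, 10 had them all on the same side of 0 and 7 did not. For BZIP59, BZIP90, BZIP105 and BZIP114 these counts include probe sets detected only through the lines or only through the control. Detection there favoured a sign, so those entries are no measure of agreement. The widest split was at BZIP114. Its brightest probe set had 1287 and 1117 in line 1 and 1163 and 943 in line 2, against 1564 and 1627 in the control, a change of -0.50 ± 0.13 (SE, limma adjusted p = 0.112). Another had 140 and 129 in line 1 and 205 and 134 in line 2, against 56.0 and 90.3 in the control, a change of 0.92. It was detected only through the lines, where it was high. The third had 63.6 and 47.9 in line 1 and 71.2 and 40.4 in line 2, all below background, against 75.7 and 84.7 in the control, which was at least 1.01-fold higher. It was detected only through the control. The brightest and the third thus lay lower on all RNAi arrays, and the other lay higher.

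BZIP110, a soybean member reported to affect salt tolerance, was split too. Its brightest probe set had 403 and 413 in line 1 and 454 and 374 in line 2, against 358 and 445 in the control, a change of 0.04. Another had 215 and 226 in line 1 and 198 and 200.4 in line 2, against 355 and 318 in the control, a change of -0.64 ± 0.12 (SE, limma adjusted p = 0.0741). For BZIP38 the bright probe set gave 0.22 ± 0.13 (SE, adjusted p = 0.326) and the dim one -0.56 ± 0.32 (SE, adjusted p = 0.304). For BZIP68 the bright probe set gave 0.40 ± 0.10 (SE, adjusted p = 0.103) and the dim one -0.12. The remaining mixed genes, BZIP87, BZIP105 and BZIP108, had all their changes between -0.09 and 0.23.

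**Figure D4:**
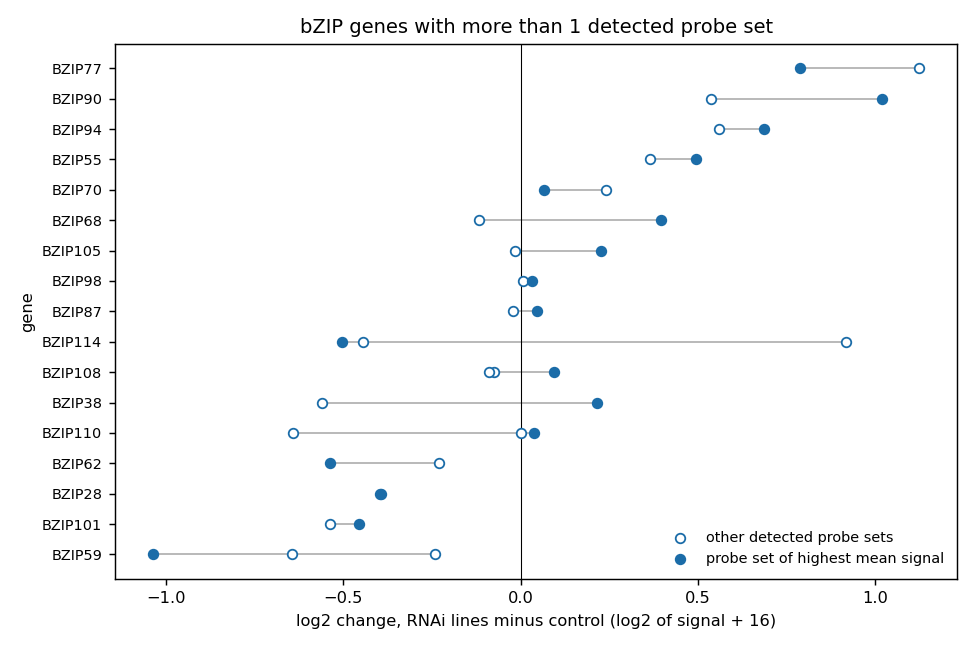
Change in the RNAi lines minus the control, on the log2 scale of signal + 16, for the 17 bZIP genes with more than 1 detected probe set. Filled points are the probe set of highest mean signal and open points the others. BZIP114 spans -0.50 to 0.92, while the probe sets of BZIP77 all lie above 0 and those of BZIP59 all below. The BZIP59 probe set nearest to 0 was detected only through the control, where it was high. Some open points of BZIP90, BZIP105 and BZIP114 were likewise detected through 1 side only.

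Values of a few members with reported roles follow, chosen after they were seen. Neither probe set of BZIP1 (AREB1) was detected. Its brighter one had 28.5 and 97.2 in line 1 and 51.2 and 74.2 in line 2, against 40.2 and 44.9 in the control. BZIP44 stayed below 10 on every array. BZIP62 at its brighter probe set had 527 and 421 in line 1 and 484 and 531 in line 2, against 657 and 781 in the control, a change of -0.54 ± 0.11 (SE, limma adjusted p = 0.0823). All 4 RNAi arrays were below the control there, while its other detected probe set overlapped. The light factor relatives BZIP36 and STF2 share a probe set, which had 957 and 968 in line 1 and 916 and 876 in line 2, against 946 and 897 in the control, a change of 0.01. STF2 also has probe sets of its own, given further on with other values. The probe set shared by BZIP76 and SOYSTGA, a factor of the TGA type, gave 0.21.

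Genes outside the BZIP symbols were gathered by name patterns, with earlier results of these arrays known. Other bZIP factors (STF2 and GBF2) had 3 tested probe sets, 0 called, and a median change of 0.23, against 0.02 over all tested. STF2 gave 0.67 at a probe set of its own (limma adjusted p = 0.0853), where the groups overlapped. Its other gave 0.23 and was detected only through line 1, where it was high. GBF2 gave 0.19. In the abscisic acid group 0 of 8 were called and the median was 0.27. The kinase gene SPK-1 had 226 and 203 in line 1 and 340 and 270 in line 2, against 99.3 and 156 in the control, a change of 0.94 (limma adjusted p = 0.108). SCOF-1, a cold-inducible zinc finger known to raise the DNA binding of a soybean bZIP protein, gave -0.86, -0.81 and 0.48 at its 3 probe sets. The first was detected only through the control and the last only through the lines, each where it was high. No test is given for those, and their opposite signs are no sign of disagreement. The probe set at -0.81 had a limma adjusted p of 0.102.

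Of the seed regulators, 0 of 4 tested were called and the median was -0.34. LEC1-A, a subunit of a CCAAT-binding complex that directs seed development in Arabidopsis, had 3728 and 3629 in line 1 and 3759 and 3856 in line 2, against 5665 and 6322 in the control. All 4 RNAi arrays were lower, with a change of -0.67 (limma adjusted p = 0.0646). WRI1B, of a family that activates oil synthesis genes, gave -0.58 (adjusted p = 0.115), also without overlap. NF-YA13 gave 0.11 and NF-YA05 gave -0.10.

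The late embryogenesis and maturation group had 6 of 40 tested called higher, where 1.05% of all tested were, and 0 lower, where 0.594% were, with a median of 0.34. The largest were PM22 at 1.76, PM29 at 1.67, PGMPM18 at 1.55 and PM35 at 1.48 (limma adjusted p = 0.0488 each), seed maturation protein genes. The pattern also took in RAB2 and RAB7P, which are small GTPases of membrane traffic. Among storage protein genes 5 of 10 tested were called lower, where 0.594% of all tested were, and 0 higher, where 1.05% were, with a median of -1.21. GY3, a glycinin gene, gave -3.44 and CG-BETA-1, a beta-conglycinin gene, -2.18 and -2.05 (limma adjusted p = 0.0488 each). The glycinin gene GY7 went the other way without being called, with 588 and 672 in line 1 and 593 and 576 in line 2, against 264 and 313 in the control, a change of 1.04 (limma adjusted p = 0.0526). The labels name storage protein suppression but no target gene, so these values are the nearest check of the labels.

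Tissue marker sums differed between the groups for storage parenchyma and seed coat, and overlapped for photosynthetic tissue through 1 array of line 2 only. The other RNAi arrays were below both control arrays for photosynthetic tissue as well. All but 2 of 19 storage parenchyma marker probe sets were above background on every array, and their summed signal was 402892 to 518810 on RNAi arrays against 713766 and 727074 on control arrays. This list holds the storage protein genes themselves. Of 8 seed coat marker probe sets 7 were above background, with PRP1 dim, and their sum was 12645 to 13895 on RNAi arrays against 23036 and 24283 on control arrays. Of 11 photosynthetic marker probe sets 8 were above background, with PSAD dim, and their sum was 128429 to 167875 on RNAi arrays against 160608 and 167247 on control arrays. The storage and seed coat sums were lower in both lines, as were BZIP124, BZIP59 and BZIP53B, while BZIP77, BZIP117, BZIP132 and BZIP10 were higher. The part of these tissues in the bZIP values was not tested.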

How the data were processed

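The deposited values are probe set intensities on a linear scale, and the authors had scaled each array to a trimmed mean of 500.1 (2% left out at each end), as found from the values. The labels give a one-cycle Affymetrix target kit; the sources used here name neither software nor genome build, so no coordinates are given. Symbols came from the platform annotation, and 55 of the 58 bZIP genes were found in the RefSeq table.

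Arrays were not rescaled. Tests used limma 3.58.1 in R 4.3.3 (lmFit, eBayes) on log2(signal + 16) over 27460 detected soybean probe sets, with Benjamini-Hochberg adjustment. Averaging the arrays of a sample left 1 residual degree of freedom (prior 2.36), and single lines used 6 arrays with 3 (prior 2.35). The pseudocount understates changes of dim probe sets. A probe set below background on all arrays of one side has only a bound: the bright side's mean against the dim side's, each dim array at its signal or background, whichever was higher. The code was tested on simulated data. Python 3.11.15, pandas 2.3.3 and matplotlib 3.10.9 were also used.

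The members, gene lists and tests were chosen with earlier results of these data known. Named are BZIP77, BZIP117, BZIP124 and BZIP59, the 8 brightest genes in the control, the 5 largest changes each way without overlap, the 3 genes most different between lines in each direction, up to 4 genes whose probe sets disagree, and 2 to 4 members of each list. BZIP1, BZIP44, BZIP62, BZIP36, BZIP85, BZIP87, BZIP105, BZIP108, the genes not detected and the shared probe sets were added after their values were seen. The alternatives changed normalization, scaling, filter, pseudocount, variance prior, replicate structure, and the arrays included. The same technical replicate number did not pair arrays across samples (correlations of deviations 0.02, 0.02 and -0.01).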

Additional observations from a re-analysis of the deposited data

Results flagged for a closer look

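Among the 69 detected bZIP probe sets, that of BZIP85 alone had both arrays of each line beyond both control arrays, with the lines on opposite sides. It had 479 and 428 on the arrays of line 1, which were both above the control arrays, and 393 and 379 on those of line 2, which were both below, against 427 and 396 in the control. The mean change of both lines was 0.0234 on the log2 scale. Both gaps were narrow, with 427.9 in line 1 against 427.1 in the control, and 392.6 in line 2 against 395.6. The share of all tested probe sets with this pattern was not counted, so the pattern is no result about the family. The difference between line 1 and line 2 was 0.22 ± 0.11 (SE, limma adjusted p = 0.92), so the lines were not called different. BZIP35, which was below background on all 6 arrays and was not tested, also had its lines on opposite sides, with 46.0 and 24.9 in line 1 and 9.36 and 5.78 in line 2, against 23.9 and 23.4 in the control.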

How the results depend on the processing

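The 2 bZIP calls, and the 451 calls among all tested probe sets, depended on the setting. There were 0 bZIP calls and 0 calls in all with a robust prior, a pseudocount of 1, no filter, median centring or quantile normalization. There were 14 bZIP calls of 3323 when background was set at its 99th percentile, 15 of 3547 with a pseudocount of 64, 28 of 8517 with an intensity trend, 26 of 5987 with 6 arrays as replicates and 33 of 10196 with duplicateCorrelation. With the replicate number as a block there were 19 of 4485, although the numbers did not pair the arrays. Leaving out 1 array gave 0 to 8 bZIP calls and 0 to 1884 in all: 0 without any RNAi array, 6 without control replicate 1 and 8 without control replicate 2. Scaling to the spikes gave 63 of 26420, all 63 higher. For line 1 the 17 bZIP calls became 6 with no filter, 63 with the spikes and 12 with the replicate block. They became 1 to 12 with 1 array left out. For line 2 the 19 became 5 with no filter, 64 with the spikes and 12 with the replicate block. They became 4 to 12 with 1 array left out. Calls of each line over all tested probe sets were not counted under these settings, so these counts show nothing particular to the family. The median bZIP change was -0.0648 with quantile normalization, -0.0388 with median centring, 0.00133 with a pseudocount of 1, 0.0117 with background at its 99th percentile, 1.36 with the spikes, and -0.0575 to -0.00462 with 1 array left out.

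Of 20 named genes, each at its brightest probe set, 11 kept their direction with the spikes. There BZIP114 gave 1.01, BZIP124 0.169, BZIP126 0.475, BZIP130 0.664, BZIP53B 0.636, BZIP59 0.493, BZIP61 0.227, BZIP69 0.595 and BZIP72 0.220, all below the 1.48 of the median probe set. Under the other settings that used all 6 arrays, every named gene tested there kept its direction. With 1 array left out BZIP110 ranged from -0.113 to 0.188 and BZIP70 from -0.0136 to 0.145, and the other 18 kept theirs. The cause of these moves was not tested. Signals near background bound BZIP61, BZIP72, BZIP90 and one probe set of BZIP59.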
